A study of Mus musculus with 20 samples.

Results

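The RNA of 42 cell cycle and DNA replication genes was followed in SIMS cells, an epithelial line from mouse salivary gland, in which Zcchc8 or Btbd7 had been knocked out with CRISPR/Cas9. The genes came from a fixed list of symbols, and all 42 were found among the 55471 genes of the deposited count table through GENCODE release M21. They were taken as 18 S phase genes (entry into S phase, DNA synthesis), 23 mitotic genes (G2 and mitosis) and the G1 cyclin Ccnd1. All 42 had enough counts to be tested. The 20 total RNA libraries came 4 each from wild type, from a Btbd7 knockout (KO, the study's negative control) and from 3 separate lines with a Zcchc8 KO, here clones 1, 2 and 3. All lines were grown in DMEM with 10% fetal bovine serum. The study asked how loss of ZCCHC8, a scaffold protein of the complex that hands unstable nuclear RNA to the exosome, changes transcripts from regulatory regions. Each edited line stands for 1 line only, and the labels give no guide or edited allele.

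In a dividing cell, D-type cyclins with CDK4 or CDK6 release E2F factors from RB, and E2F then switches on the genes for cyclin E, nucleotide synthesis and the licensing and copying of DNA. The mitotic genes peak later, in G2 and mitosis, under the DREAM and MuvB complexes with B-MYB and FOXM1. In bulk RNA the level of such a gene depends on both the share of cells in the phase and the RNA per cell, and the 2 cannot be told apart here.

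Gene counts per library ran from 6833258 to 17771804, and the 4 libraries of clone 1 were all shallow (6833258 to 7683444). Wild-type replicate 1 stood apart, with 14245 genes detected where the others of its group had 17442 to 18791, and 7.24% of counts from mitochondrial genes against 4.13% to 5.39% there. Epithelial markers were well expressed (Epcam 304 to 435 CPM, Cdh1 321 to 471 CPM), where CPM is a count scaled to a common library total with trimmed mean of M-values (TMM) factors. Of the salivary acinar markers, Aqp5 lay at 108 to 187 CPM, whereas Smr3a and Bpifa2 had 0 counts in all libraries. Of the myoepithelial or basal markers, Acta2 did not exceed 0.145 CPM, but Krt14 lay at 161 to 419 CPM and Trp63 at 0.301 to 22.9 CPM. Of the fibroblast markers, Thy1 was at 0 in all libraries and Col1a1 at 8.65 to 26.6 CPM. Of the immune markers, Ptprc did not exceed 0.685 CPM and Cd68 lay at 4.02 to 12.9 CPM. The endothelial marker Pecam1 did not exceed 1.02 CPM. Of the markers examined, Krt7, Krt8, Krt18, Aqp5 and Krt14 fell in the average of the clones, by 0.38 to 0.59 on the log2 scale. In clone 2, however, Krt8 (-0.10) and Krt14 (-0.15) were not called. Krt19 was higher in clone 2 (0.60) and lower in clones 1 (-0.35) and 3 (-0.57), and was not called in the average. The fibroblast marker Col3a1 fell by 3.85 in that average, from 3.15 CPM in wild type to 0.165, 0.0688 and 0.894 CPM in clones 1, 2 and 3. Averages of Trp63, Col1a1 and Cd68 rose but the clones differed: Trp63 was called higher in clone 2 alone (3.07, against -0.73 and 0.70), Col1a1 in clones 2 and 3 (-0.09 in clone 1) and Cd68 in clones 1 and 2 (-0.01 in clone 3). The immune markers summed to 7.61 to 9.61 CPM in wild type, 12.9 to 17.1 in clone 1, 11.7 to 15.3 in clone 2 and 6.81 to 10.1 in clone 3, and the 6 fibroblast markers to 11.4 to 18.5 CPM in wild type, 10.2 to 14.2 in clone 1, 24.4 to 28.2 in clone 2 and 22.2 to 26.3 in clone 3. Their part in the results below was not tested. As a check of the labels, Btbd7 fell in Btbd7 KO (log2 fold change -1.03). Zcchc8 RNA fell in clone 2 (-1.48) and clone 3 (-0.26) but in clone 1 was not called (-0.11, adjusted p = 0.291 in edgeR). Edits in the genome were not analysed here. The labels do not say whether replicates are separate cultures, so p-values measure the spread between these libraries, which may be technical.

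The listed genes of S phase and of mitosis moved apart on average in the Zcchc8 KO lines. Averaged over the 3 clones and set against wild type, 6 of the 18 S phase genes rose, 1 fell and 11 were not called, while 17 of the 23 mitotic genes fell, 0 rose and 6 were not called (edgeR's quasi-likelihood fit, with p under 0.05 after Benjamini-Hochberg adjustment over 15297 genes). At an unadjusted p under 0.05 the mitotic genes that rose were again 0, and DESeq2 called 1. The 6 S phase genes that rose were Pcna, Mcm7, Tk1, E2f1, Tyms and Cdc6. Across all genes tested, 16.2% were called higher and 19.9% lower in this comparison (11.8% and 25.4% of the protein-coding genes). Among the 7464 genes with a mean level at least that of Ccne1, the lowest of the 42 (20.3 CPM), 10.1% were called higher and 33.3% lower. The median log2 fold change was 0.13 for the S phase genes and -0.19 for the mitotic genes, against -0.01 over all genes and -0.05 over protein-coding genes. These medians kept their sign under every scaling tried (0.21 and -0.11 without TMM, where the median over all genes was 0.07). They were 0.09 and -0.18 without wild-type replicate 1, and 0.20 and -0.16 without replicate 2. Averaged over the S phase genes, wild-type libraries deviated from their group mean by -0.19 to 0.11 (log2), a span wider than the S phase median. Over the mitotic genes they deviated by -0.04 to 0.03. In Btbd7 KO against wild type the S phase median was -0.02 and the mitotic median -0.12, against 0.02 over all genes. With Btbd7 KO as the reference, the medians of the clones were 0.07 and -0.12, against -0.01 over all genes. For the clones against wild type, the estimate lay above 0 for 16 of the 18 S phase genes and below 0 for 20 of the 23 mitotic genes, against 49.3% above 0 over all genes. The share above 0 was not counted for protein-coding or abundant genes alone, which were called lower more often. The split of calls depended on the scaling: with Ccnd1 included, 6 of 25 called genes were higher in the TMM-scaled fit, and 13 of 22 without TMM factors, where 12 S phase genes rose, 7 mitotic genes fell and 1 mitotic gene rose.

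The changes were small. No S phase or mitotic gene changed by more than 0.50 on the log2 scale in the average of the clones. Another fit took each of the 5 cell lines as a single replicate and set the clones against wild type and Btbd7 KO together. That fit left Ccnd1 alone called among the 42 (log2 fold change -0.82, edgeR adjusted p = 0.0243). A gene had to be called in the same direction in each clone for a stricter count. By it, 7 mitotic genes were lower (Ccna2, Mad2l1, Ccnb1, Cenpe, Kif20a, Cdc25c and Kif23), as were Ccne2 and Ccnd1, and 0 of the 42 were higher, where 5.82% of all genes were called lower and 7.64% higher in each clone. The calls it uses come from the fit over all groups. Fits of only the groups compared called fewer of the 42 genes lower in each clone. In 4 mitotic genes (Ccna2, Ccnb1, Cdc25c and Kif20a) all 12 clone libraries lay below all 4 wild-type libraries, which held for 4.12% of all genes. For 0 of the 41 S phase and mitotic genes did all 12 lie above, against 6.01% of all genes. Without wild-type replicate 1, all 12 clone libraries lay below the wild-type libraries in 9 mitotic genes, with Ccnb2, Cdc20, Kif23, Cenpe and Mki67 added, and in 6.22% of all genes.

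**Figure D1:**
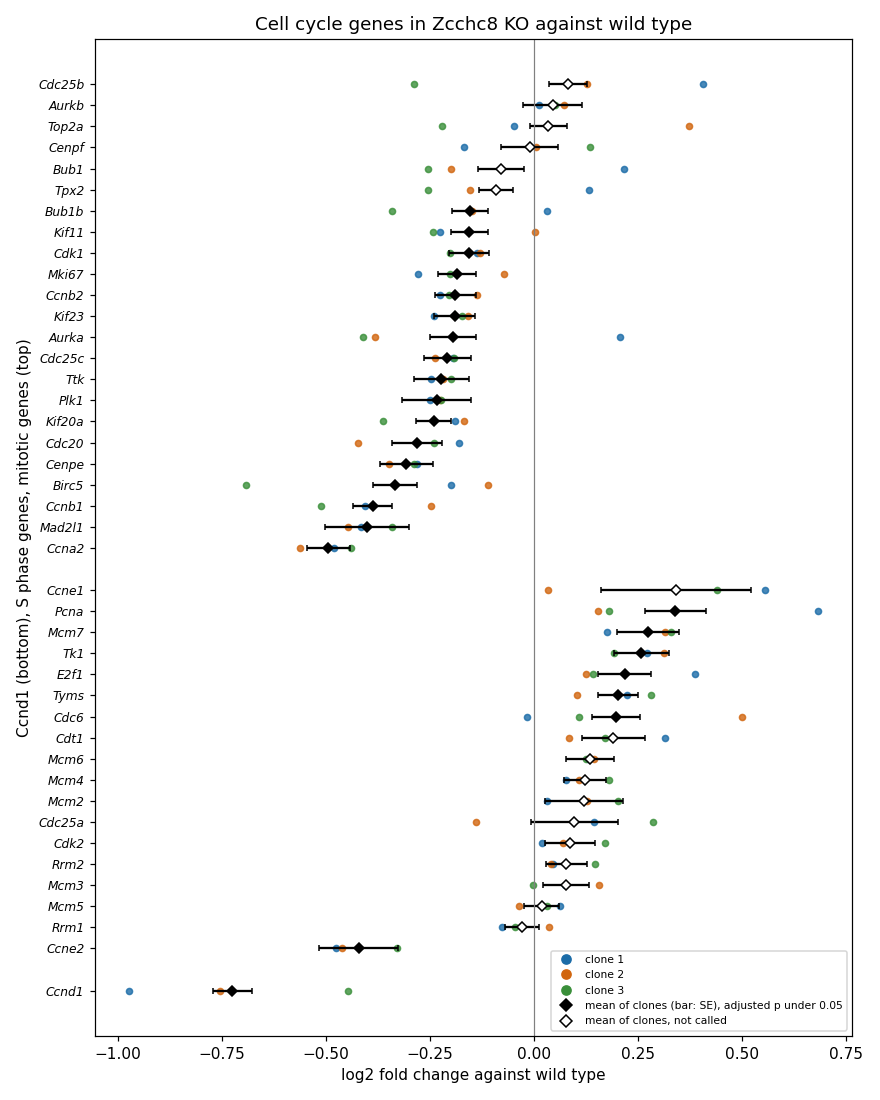
Log2 fold change against wild type of each gene (vertical axis) in clones 1, 2 and 3 (coloured points) and in their mean (diamonds, bars give the SE, filled where the adjusted p is under 0.05). Of the mitotic genes, 20 of 23 means lie left of 0, of the S phase genes 16 of 18 lie right of it, and Ccnd1 has the lowest mean of all at -0.73.

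The summed level of the 23 mitotic genes divided by that of the 18 S phase genes in the same library does not depend on any library scaling. It was 2.30, 2.17, 2.19 and 2.32 in the wild-type libraries and 2.19, 2.14, 2.15 and 2.17 in Btbd7 KO. In clone 1 it was 1.80, 1.82, 1.89 and 1.86, in clone 2 1.91, 2.10, 1.94 and 2.06, and in clone 3 1.73, 1.75, 1.85 and 1.74. All 12 clone libraries were below all 8 control libraries, with clone 2 nearest to them. The S phase sum was 2934 ± 162 CPM for wild type, 2925 ± 48.9 for Btbd7 KO, and 3174 ± 44.3, 3127 ± 65.1 and 3159 ± 87.1 for clones 1, 2 and 3 (SD, n = 4 each). The mitotic sum was 6584 ± 196 CPM for wild type, 6327 ± 83.9 for Btbd7 KO, and 5840 ± 160, 6258 ± 305 and 5576 ± 73.0 for the clones (SD, n = 4 each). Thus clone 2 overlapped the control lines in its mitotic sum, and clones 1 and 3 lay below them. Sums weigh abundant genes most, and no test was run on them. Wild-type replicate 1, with the fewest genes detected, had the lowest S phase sum (2737 CPM, against 2876 to 3107 CPM in the other wild-type libraries) and the lowest mitotic sum of its group (6306 CPM). The 4 shallow libraries of clone 1 had ratios of 1.80 to 1.89, and those of clone 3, with 7578027 to 14593557 counts, had 1.73 to 1.85. The part of depth and of that library in the ratio was not tested.

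**Figure D2:**
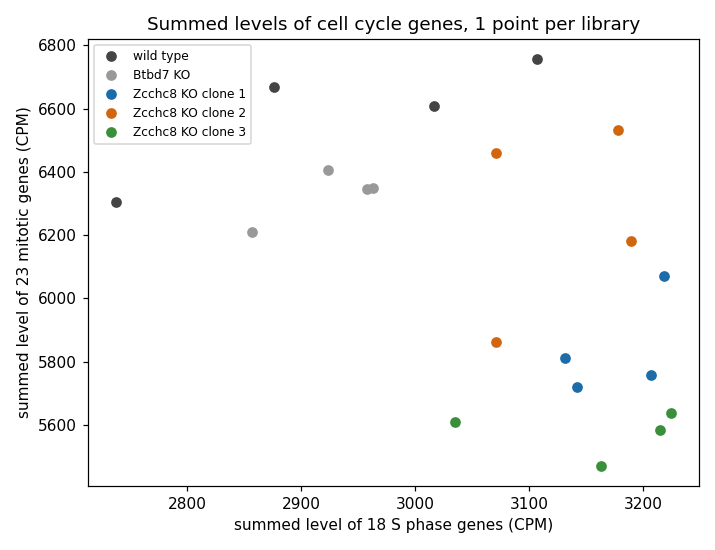
Summed level of the 18 S phase genes (horizontal axis, CPM) against that of the 23 mitotic genes (vertical axis, CPM), with 1 point per library. The S phase sums of the clones (3035 to 3224 CPM) overlap those of wild type (2737 to 3107 CPM), most clone libraries lie lower on the vertical axis, and the axes do not start at 0.

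The promoters of the 2 sets carry different motifs, and 4 promoters are shown because their genes stand for each set below. Of the 42 genes, 34 matched the RefSeq promoter table (build GRCm38.p6), which covers 250 bases before to 50 bases after the gene's start. The motifs searched, on both strands, were the cell cycle genes homology region (CHR: TTTGAA and also TTTAAA), which the DREAM and MuvB complexes bind, E2F sites (TTTGGCGC, TTTCGCGC, TTCCCGCC and TTTCCCGC) and the CCAAT box. A CHR match was present in 15 of 18 mitotic promoters (83.3%) and 5 of 16 S phase promoters (31.2%), against 26.0% of all 20540 promoters. An E2F match was present in 9 of 16 S phase promoters (56.2%) and 1 of 18 mitotic promoters (5.56%), against 4.25% of all. CCAAT was found in 16 of 18 mitotic promoters (88.9%), 10 of 16 S phase promoters (62.5%) and 38.2% of all. These are matches of letters only. Below, capitals mark every match to one of these motifs in the 250 bases before the start, 5′ to 3′ on the strand of the gene. In Mcm5 the 2 E2F matches overlap in 1 run of capitals.
Mcm5, chr8:75109259-75109508, plus strand: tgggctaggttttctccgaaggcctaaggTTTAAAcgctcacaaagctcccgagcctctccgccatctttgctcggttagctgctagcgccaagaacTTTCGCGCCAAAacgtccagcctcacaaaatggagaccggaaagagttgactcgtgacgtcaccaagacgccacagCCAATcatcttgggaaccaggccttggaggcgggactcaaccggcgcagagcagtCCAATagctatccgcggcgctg
Cdk2, chr10:128705052-128705301, minus strand: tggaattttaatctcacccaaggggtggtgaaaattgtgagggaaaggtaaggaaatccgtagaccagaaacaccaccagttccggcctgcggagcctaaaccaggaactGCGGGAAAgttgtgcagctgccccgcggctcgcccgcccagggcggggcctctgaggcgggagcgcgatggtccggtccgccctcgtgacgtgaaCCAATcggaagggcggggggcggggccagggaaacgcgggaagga
Birc5, chr11:117848987-117849236, plus strand: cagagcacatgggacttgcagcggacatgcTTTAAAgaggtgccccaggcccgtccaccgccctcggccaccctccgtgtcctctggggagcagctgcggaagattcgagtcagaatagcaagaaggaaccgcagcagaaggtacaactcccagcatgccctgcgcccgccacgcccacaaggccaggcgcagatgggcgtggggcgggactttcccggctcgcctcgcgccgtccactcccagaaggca
Ccnb1, chr13:100786487-100786736, minus strand: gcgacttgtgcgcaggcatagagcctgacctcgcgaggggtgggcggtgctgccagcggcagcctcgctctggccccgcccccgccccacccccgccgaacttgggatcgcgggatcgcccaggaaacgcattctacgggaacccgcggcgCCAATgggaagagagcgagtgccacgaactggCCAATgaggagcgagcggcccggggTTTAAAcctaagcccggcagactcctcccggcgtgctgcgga
In Ccnb1 the CHR match begins 42 bases and the CCAAT matches 99 and 67 bases before the start, whereas the CHR match of Birc5 begins 220 bases before it.

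Cyclin D1 (Ccnd1), which activates CDK4 and CDK6 in G1, had the largest change of the 42 genes. Its wild-type libraries held 509, 519, 502 and 501 CPM and the Btbd7 KO libraries 575, 562, 603 and 623 CPM. Clone 1 was at 250, 285, 263 and 236 CPM, clone 2 at 313, 306, 302 and 282 CPM, and clone 3 at 381, 402, 334 and 373 CPM. Every clone library was below every wild-type library, and every Btbd7 KO library was above. On average the clones changed by -0.73 on the log2 scale (SE 0.05, edgeR adjusted p = 1.19e-11), to 0.605 times the wild-type level. It was -0.97, -0.76 and -0.45 in clones 1, 2 and 3, a difference between clones that passed its own test (edgeR adjusted p = 8.05e-07). In Btbd7 KO Ccnd1 rose by 0.22 (edgeR adjusted p = 0.0122), a call that was lost without Btbd7 KO replicate 4 (0.19, adjusted p = 0.0536). Ccnd1 (chr7:144929931-144939925, minus strand, GRCm38) is overlapped on the other strand by LTO1. Whether the authors' counting used strand is not given in the sources used here, so reads of the 2 genes cannot be told apart, as for 14 others of the 42 with an antisense gene, among them Ccna2 (Exosc9), Ccne2 (Ints8), Cdk2 (Pmel) and Cdc25b (Spef1).

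Among 14 other G1 kinases, cyclins and inhibitors, 6 fell, 1 rose and 7 were not called, where 25.4% of protein-coding genes fell and 11.8% rose. Ccnd2, the second D-type cyclin, fell from 435 ± 25.5 CPM in wild type to 232 ± 17.3 and 270 ± 16.4 CPM in clones 1 and 2 (SD, n = 4 each; -0.58 averaged over the clones, edgeR adjusted p = 1.02e-09), but in clone 3 it was at 393 ± 24.1 CPM and not called (-0.15, adjusted p = 0.0721). Cdk6, a partner kinase of D-type cyclins, fell to a like extent in each clone, by 0.54, 0.64 and 0.56 on the log2 scale from a wild-type level of 279 ± 15.7 CPM, and its level in Btbd7 KO was 278 ± 11.5 CPM (SD, n = 4 each). The CDK inhibitor gene Cdkn1a (p21) was at 25.4 ± 2.09 CPM in wild type and 23.6 ± 2.84, 14.9 ± 1.25 and 15.5 ± 2.28 CPM in clones 1, 2 and 3 (SD, n = 4 each). It fell in clones 2 (-0.76) and 3 (-0.70) but was not called in clone 1 (-0.11, edgeR adjusted p = 0.509), a difference between clones that passed the test (edgeR adjusted p = 0.000108). Of 20 regulators of the RB, E2F and DREAM pathway, 2 rose and 5 fell, near the shares of protein-coding genes (11.8% and 25.4%). E2f5, a repressor E2F, fell by 0.77 (edgeR adjusted p = 5.59e-06), and Tfdp2, a partner subunit of E2F factors, rose by 0.57 (edgeR adjusted p = 1.66e-07). Foxm1, the transcription factor of late mitotic genes, was not called (-0.08, edgeR adjusted p = 0.117).

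The S phase genes were led by Pcna, the sliding clamp of DNA polymerases. It was at 128, 188, 167 and 166 CPM in wild type and 144, 155, 154 and 139 CPM in Btbd7 KO. Clone 1 had 273, 242, 278 and 248 CPM, above every control library, whereas clone 2 (154, 181, 182 and 203 CPM) and clone 3 (175, 196, 188 and 177 CPM) overlapped wild type. The average over the clones was 0.34 (log2, SE 0.07, edgeR adjusted p = 0.000704), made up of 0.68 in clone 1 and uncalled values of 0.15 and 0.18 in clones 2 and 3 (clones differed, edgeR adjusted p = 3.14e-05). The lowest wild-type value was that of replicate 1, and without it the change was 0.26.

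Tyms encodes thymidylate synthase, which makes dTMP. Its level was 104, 102, 99.7 and 114 CPM in wild type and 92.5, 90.5, 90.2 and 94.5 CPM in Btbd7 KO. It was 113, 127, 126 and 123 CPM in clone 1, 119, 111, 110 and 109 CPM in clone 2 and 128, 123, 126 and 132 CPM in clone 3. Only in clone 3 did every library exceed every wild-type library. The averaged change was 0.20 (SE 0.05, edgeR adjusted p = 0.00154), called in clones 1 (0.22) and 3 (0.28) but not in clone 2 (0.10). In Btbd7 KO Tyms fell by 0.19 (edgeR adjusted p = 0.0284), with all 4 libraries below wild type, but without wild-type replicate 4 that value was -0.14 and not called (adjusted p = 0.139), nor was it called without Btbd7 KO replicate 1 (-0.18), 2 (-0.18) or 3 (-0.18).

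Cdc6 loads the MCM helicase at origins together with Cdt1. It was at 46.9, 51.5, 51.7 and 48.1 CPM in wild type, and clone 1 (44.8, 53.1, 46.9 and 51.3 CPM) and clone 3 (53.5, 52.6, 57.7 and 50.4 CPM) overlapped these values. Clone 2 alone among the clones lay wholly above them, at 75.4, 69.2, 67.3 and 68.9 CPM, but so did Btbd7 KO, at 64.7, 61.3, 60.9 and 60.5 CPM. The changes were 0.50 in clone 2 (edgeR adjusted p = 4.94e-06) and 0.32 in Btbd7 KO (edgeR adjusted p = 0.00221). The average over the clones was 0.20 (SE 0.06, edgeR adjusted p = 0.00948).

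Ccne2, 1 of the 2 E-type cyclins that drive S phase entry with CDK2, went the other way. It was at 92.6, 63.2, 58.0 and 74.7 CPM in wild type, 58.0, 55.4, 55.1 and 67.4 CPM in Btbd7 KO, 49.4, 47.0, 56.9 and 54.4 CPM in clone 1, 60.9, 49.9, 49.7 and 50.1 CPM in clone 2 and 57.0, 47.0, 59.0 and 66.0 CPM in clone 3. Clone 1 lay below all wild-type libraries, and clones 2 and 3 overlapped them. The averaged change was -0.42 (SE 0.09, edgeR adjusted p = 0.00103). Wild-type replicate 1 was the highest library, and without it the change was -0.26 (edgeR adjusted p = 0.00983) and clone 3 was not called (-0.18, adjusted p = 0.175). Against Btbd7 KO, Ccne2 was not called (-0.13, edgeR adjusted p = 0.307).

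Of the 6 subunits of the MCM helicase, which unwinds DNA ahead of the fork, Mcm7 rose (0.27, edgeR adjusted p = 0.00543), and Mcm2, Mcm3, Mcm4, Mcm5 and Mcm6 were not called, at 0.02 to 0.13. Tk1, the thymidine kinase, rose by 0.26 and E2f1, the activator E2F, by 0.22 (edgeR adjusted p of 0.00291 and 0.00836). E2f1 also rose in Btbd7 KO, by 0.24 (edgeR adjusted p = 0.0365), though that call was lost without wild-type replicate 1 (0.22) or 2 (0.23) and without Btbd7 KO replicate 1 (0.23), 2 (0.24) or 3 (0.21). The subunits of ribonucleotide reductase, Rrm1 (-0.03) and Rrm2 (0.08), were not called, nor were Cdk2 (0.09), Cdc25a (0.10), Cdt1 (0.19) and Ccne1 (0.34, SE 0.18, 16.0 CPM in wild type). In the machinery beyond the list, 3 of 25 genes of polymerases and the fork rose and 4 fell, with Pold1 (0.53), the catalytic subunit of polymerase delta, and its accessory subunit Pold2 (-0.37) moving in opposite directions. Of 19 genes of origin licensing and firing, 2 rose and 5 fell, led by the origin recognition subunits Orc2 (-0.40) and Orc5 (-0.37). For both groups the counts were near or below the shares of protein-coding genes that rose (11.8%) and fell (25.4%).

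The mitotic genes were led by Ccna2, cyclin A2, which acts in S phase and G2. Its level was 652, 503, 543 and 569 CPM in wild type and 451, 423, 478 and 436 CPM in Btbd7 KO. It was 414, 403, 408 and 400 CPM in clone 1, 391, 400, 354 and 391.5 CPM in clone 2 and 413, 387, 422 and 448 CPM in clone 3. The clones and Btbd7 KO all lay below the wild-type range, and clone 3 overlapped Btbd7 KO. Against wild type the change was -0.49 averaged over the clones (SE 0.05, edgeR adjusted p = 4.57e-08) and -0.34 in Btbd7 KO (edgeR adjusted p = 0.000484). Set against Btbd7 KO, the clones differed by -0.15 (edgeR adjusted p = 0.0234).

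Ccnb1, cyclin B1, activates CDK1 at the entry into mitosis. It was at 217, 194, 213 and 206 CPM in wild type, 183, 187, 185 and 188 CPM in Btbd7 KO, 148, 154, 161 and 163 CPM in clone 1, 168, 178, 172 and 182 CPM in clone 2 and 140, 137, 140 and 165 CPM in clone 3. The 12 clone libraries lay below all 8 control libraries. The averaged change was -0.39 (SE 0.05, edgeR adjusted p = 4.72e-07), and against Btbd7 KO it was -0.23 (edgeR adjusted p = 0.000393). Clone 2 changed least (-0.25) and clone 3 most (-0.51).

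Birc5 encodes survivin, a subunit of the chromosomal passenger complex with Aurora B. It was at 118, 112, 110 and 109 CPM in wild type, 104, 96.6, 98.3 and 110 CPM in Btbd7 KO, 104, 97.4, 97.0 and 92.3 CPM in clone 1 and 99.1, 116, 97.8 and 103 CPM in clone 2. Clone 3 stood well below these, at 68.4, 70.3, 72.9 and 66.6 CPM. The averaged change of -0.33 (SE 0.05, edgeR adjusted p = 1.66e-05) joined -0.69 in clone 3, -0.20 in clone 1 and an uncalled -0.11 in clone 2. The call in clone 1 was lost without wild-type replicate 1 (-0.15, adjusted p = 0.0684) and without each of 3 libraries of clone 1.

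The remaining 14 mitotic genes that fell did so by 0.15 to 0.40. They included Mad2l1, Bub1b and Ttk of the spindle checkpoint (-0.40, -0.15 and -0.22), the kinesins Cenpe, Kif20a, Kif23 and Kif11 (-0.31, -0.24, -0.19 and -0.16), Cdc20, an activator of the anaphase-promoting complex (-0.28), and the mitotic kinases Plk1 (-0.23), Aurka (-0.19) and Cdk1 (-0.16). The phosphatase Cdc25c, cyclin B2 (Ccnb2) and the proliferation marker Mki67 fell by 0.21, 0.19 and 0.18. For 4 of these genes the call was lost when a single wild-type library was left out. Without wild-type replicate 1 Mad2l1 was at -0.14 (adjusted p = 0.0596), without replicate 2 Plk1 was at -0.08 (adjusted p = 0.42), without replicate 3 Ttk was at -0.16 (adjusted p = 0.0899), and without replicate 4 Kif11 was at -0.10 (adjusted p = 0.113). The call of Plk1 was also lost without replicate 1 or 3 of clone 1, 1 or 2 of clone 2, or 1 or 3 of clone 3, at -0.20 to -0.22.

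Of the 42 genes, 18 differed among the 3 clones (13 mitotic genes, 4 S phase genes and Ccnd1), and 28.5% of all genes did so. Cdc25b, a phosphatase that activates CDK1, was at 144, 145, 138 and 137 CPM in wild type and 132, 136, 126 and 125 CPM in Btbd7 KO. It was higher in clone 1, at 188, 190, 187 and 182 CPM, near wild type in clone 2, at 152, 151, 170 and 143 CPM, and lower in clone 3, at 119, 110, 120 and 113 CPM. The changes were 0.41 (edgeR adjusted p = 4.13e-06), an uncalled 0.13 and -0.29 (edgeR adjusted p = 0.000396), and clones 1 and 3 differed by 0.70 (SE 0.06, edgeR adjusted p = 2.76e-09).

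Top2a encodes topoisomerase II alpha, which untangles sister chromatids. It was at 871, 996, 972 and 990 CPM in wild type and 1137, 1147, 1136 and 1075 CPM in Btbd7 KO. Clone 1 (903, 904, 992 and 902 CPM) lay within the wild-type range, clone 2 (1134, 1282, 1210 and 1331 CPM) above it and clone 3 (782, 836, 849 and 819 CPM) below it. The changes were 0.37 in clone 2 (edgeR adjusted p = 8.5e-06), -0.22 in clone 3 (edgeR adjusted p = 0.0032) and 0.23 in Btbd7 KO (edgeR adjusted p = 0.00397). The average over the clones (0.03) was therefore not called. Aurka, the spindle pole kinase, was at 82.7 to 92.8 CPM in clone 1, above the wild-type range of 72.8 to 81.0 CPM, and at 53.5 to 63.2 CPM in clones 2 and 3, below it, with changes of 0.21, -0.38 and -0.41. The call in clone 1 was lost without wild-type replicate 2 (0.18, adjusted p = 0.0538). Tpx2, the activator of Aurora A, and the checkpoint kinase Bub1 had the same order (0.13, -0.15 and -0.25 for Tpx2, 0.22, -0.20 and -0.26 for Bub1). Of these, the call of Tpx2 in clone 1 was lost without clone 1 replicate 3 (0.12, adjusted p = 0.0785), that of Bub1 in clone 1 without wild-type replicate 2 (0.16, adjusted p = 0.0674) and that of Bub1 in clone 2 without wild-type replicate 1 (-0.09, adjusted p = 0.239). In clone 2 the calls of both were also lost without wild-type replicate 4 (-0.12 for Tpx2, -0.16 for Bub1) and without replicate 1 or 3 of that clone, and that of Tpx2 without its replicate 2. Aurkb (0.04) and Cenpf (-0.01) were the other uncalled mitotic genes.

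**Figure D3:**
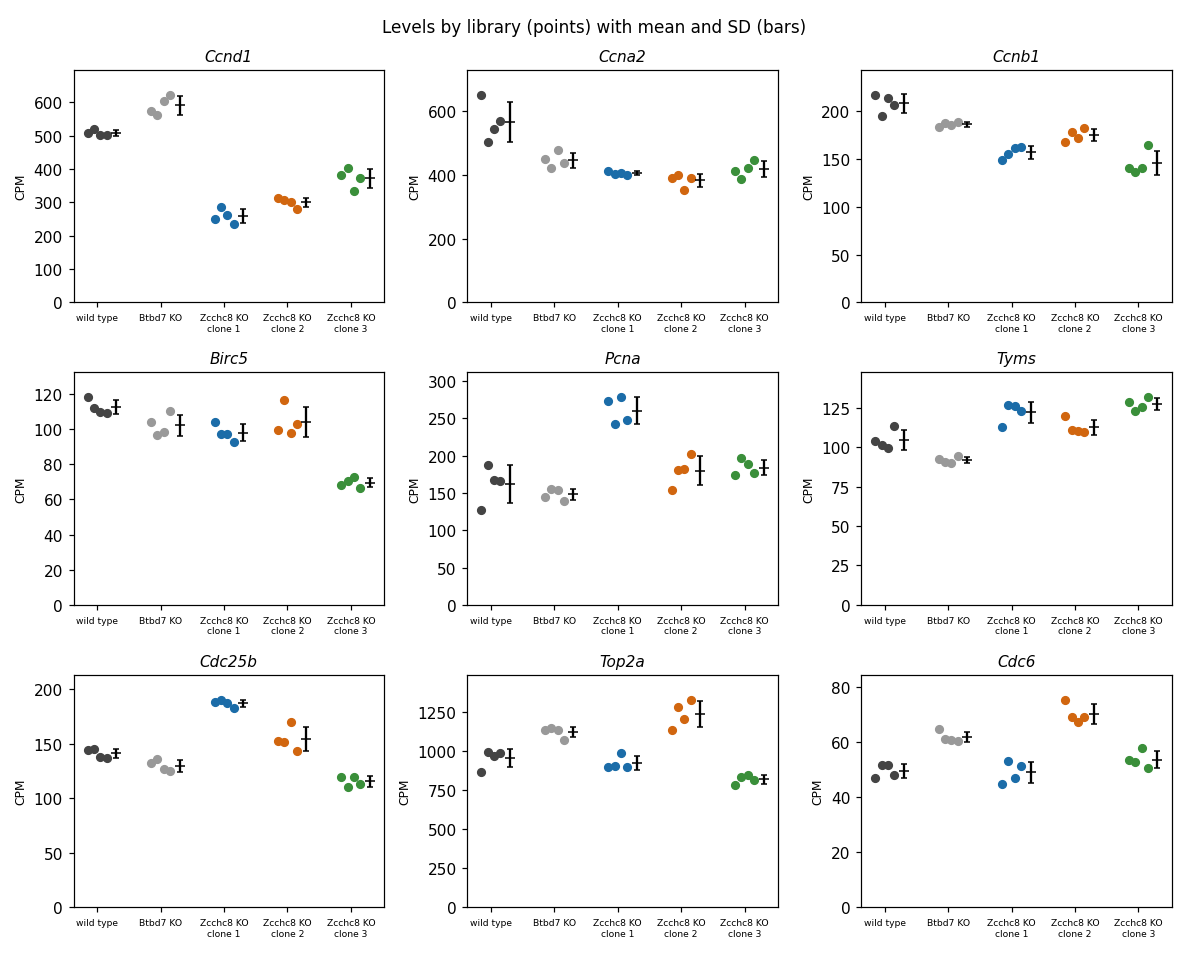
Level of 9 genes in each library (points, CPM, vertical axes from 0) by group, with the mean and SD of the group (bar at right). Ccnd1 lies at 236 to 402 CPM in the clones against 501 to 519 CPM in wild type, and Cdc25b and Top2a order the clones differently.

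Clone by clone, 9 of the 42 genes were higher and 14 lower than wild type in clone 1, where 16.7% and 19.1% of all genes were. In clone 2, 4 were higher and 15 lower (16.1% and 16.2% of all genes), and in clone 3, 3 were higher and 21 lower (14% and 15.3% of all genes). Mitotic genes made up 12, 13 and 19 of these decreases. The median change of the mitotic genes was -0.19, -0.16 and -0.24 in clones 1, 2 and 3, and that of the S phase genes 0.10, 0.11 and 0.17. Without wild-type replicate 2, 7 genes were called higher in clone 2 and 10 in clone 3, and without wild-type replicate 4 or clone 2 replicate 1, 9 were called lower in clone 2. These counts use a spread shared by all groups. When only the groups compared were fitted, markedly fewer of the 42 genes were called lower in each clone, as given in the closing section.

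In the negative control, Btbd7 KO, 6 of the 42 genes rose and 2 fell, where 7.73% of all genes were higher and 8% lower. Those that rose were Rrm2 (0.43), Cdc6 (0.32), Aurkb (0.29), E2f1 (0.24), Top2a (0.23) and Ccnd1 (0.22), and those that fell were Ccna2 (-0.34) and Tyms (-0.19). The number that fell was 8 without wild-type replicate 1, 5 without wild-type replicate 2, and 1 without wild-type replicate 4 or without Btbd7 KO replicate 1, 2 or 3. With Btbd7 KO in place of wild type as the reference, 7 S phase genes were higher in the clones, 1 was lower, 1 mitotic gene was higher and 11 were lower, where 18.8% of all genes were higher and 22.2% lower. In this comparison Tk1 (0.47), Pcna (0.47), Cdt1 (0.41) and Tyms (0.39) had the largest increases, and Ccnd1 (-0.94), Cdc25c (-0.37) and Rrm2 (-0.35) the largest decreases. Of the calls in Btbd7 KO, that of Aurkb was also lost without wild-type replicate 1 (0.19) or Btbd7 KO replicate 1 (0.29) or 2 (0.29). The comparisons of the clones with wild type and with Btbd7 KO share the same 12 clone libraries.

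Of 149 further cell cycle genes, all of them tested, 12 rose, 46 fell and 91 were not called, with a median of -0.06. These shares are near the background of this comparison, where 11.8% of protein-coding genes were higher and 25.4% lower, and 10.1% and 33.3% of the genes at least as abundant as Ccne1. Of the 43 genes in the 3 mitotic groups of this list, 16 fell and 0 rose (0 also at an unadjusted p under 0.05 in edgeR), the decreases being near the 33.3% of genes at least as abundant as Ccne1. Of the 12 kinetochore and checkpoint genes 4 fell, among them Nuf2 (-0.32) and Bub3 (-0.29). Of the 16 genes of the spindle and cytokinesis 7 fell, led by Ect2 (-0.48), the exchange factor that starts furrow formation, and its partner Racgap1 (-0.36). Of the 15 cohesin and condensin genes 5 fell, with the condensin subunit Ncapg at -0.25 and Pttg1, which encodes securin, at -0.66. The latter was -0.36 without wild-type replicate 1 and then not called (adjusted p = 0.0794), and Nuf2 was -0.20 without wild-type replicate 4. Of 20 genes of the anaphase-promoting and SCF ubiquitin ligases 3 rose and 8 fell (11.8% and 25.4% of protein-coding genes), with Anapc11 and Anapc13 both at 0.60 (0.39 for Anapc13 without wild-type replicate 1). Of 8 genes of the DNA damage checkpoint, 2 fell, led by the kinase gene Atr (-0.38), and Pkmyt1 (0.34), an inhibitory kinase of CDK1, rose.

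Upstream of the same genes, the called changes in the clones had 1 direction. Counts were deposited for PROMPT (promoter upstream transcript) regions, named by gene, in 19 libraries, without wild-type replicate 1. Of the 42 genes 38 had a testable region, and 30 of these regions rose, 0 fell (0 also at an unadjusted p under 0.05) and 8 were not called in the clones against wild type, where 39.9% of 17655 tested regions rose and 3.31% fell. Counted over genes whether or not their region was tested, these are 30 of 42, against 45.1% of the protein-coding genes tested in the gene table. The regions of 14 of 18 S phase genes and 15 of 23 mitotic genes rose, so regions rose in both sets. In clones 1, 2 and 3 taken singly, 31, 27 and 28 regions rose and 0 fell, where 39.3%, 36% and 36.7% of all regions rose and 3.79%, 3.09% and 2.41% fell. Against Btbd7 KO 34 regions were higher in the clones, where 45.6% of all regions were higher and 5.77% lower. The medians were 1.79 for 18 tested S phase regions and 2.55 for 19 tested mitotic regions, against 0.45 over all regions. The filter keeps a region with enough counts in 1 group alone, so regions near 0 in wild type could enter through the clones. Examples are Mcm3 (0 CPM in wild type, 0.633, 0.255 and 0.525 CPM in clones 1, 2 and 3) and Cenpe (0.039 against 1.67, 1.38 and 1.71 CPM). For such regions the filter favours a rise, and the 0.45 over all regions is not matched for gene level. Scaling within the PROMPT table lowers the median of all regions to 0.02, and then 1 region of the 42 genes was lower and that of Mcm7 changed sign (-0.03, edgeR adjusted p = 0.872). In Btbd7 KO 0 of the 38 regions rose in edgeR (4 at an unadjusted p under 0.05, 1 with DESeq2) and 1 fell, that of E2f1 (-2.06, edgeR adjusted p = 0.0248, from 11 to 13 counts in wild type to 1 to 4), where 1.35% of regions rose and 1.68% fell. That call was lost without wild-type replicate 3 (-1.88, adjusted p = 0.0766) and without Btbd7 KO replicate 2 (adjusted p = 0.073), 3 (adjusted p = 0.0534) or 4 (adjusted p = 0.0536).

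At Mcm5, a helicase subunit whose promoter is shown above, the PROMPT region was at 1.56, 2.51 and 1.92 CPM in wild type and 2.40, 1.67, 1.36 and 1.02 CPM in Btbd7 KO. It was at 20.5, 19.6, 17.7 and 24.5 CPM in clone 1, 12.1, 15.8, 16.6 and 16.9 CPM in clone 2 and 16.1, 19.3, 21.3 and 19.9 CPM in clone 3. The change was 3.20 (SE 0.19, edgeR adjusted p = 1.35e-22), or 9.22-fold, with no overlap between clones and controls. Mcm5 itself was not called (0.02, edgeR adjusted p = 0.764).

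At Birc5 the region was at 1.73, 1.85 and 2.39 CPM in wild type and 1.14, 0.867, 1.11 and 2.20 CPM in Btbd7 KO. It was at 21.1, 25.3, 23.7 and 23.2 CPM in clone 1, 14.7, 20.4, 20.9 and 19.9 CPM in clone 2 and 14.3, 16.8, 10.98 and 12.7 CPM in clone 3. The change was 3.19 (SE 0.19, edgeR adjusted p = 1.53e-22). Clone 3 had the lowest mean level of the PROMPT region and of the gene among the clones. Its libraries overlapped those of clone 2 at the PROMPT region (10.98 to 16.8 CPM against 14.7 to 20.9 CPM).

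At Ccnd1 the region rose while the gene fell. It was at 5.60, 2.51 and 4.72 CPM in wild type and 6.59, 4.73, 5.92 and 6.10 CPM in Btbd7 KO. In clone 1 it was at 31.1, 26.5, 23.8 and 31.1 CPM, in clone 2 at 16.2, 21.7, 18.02 and 19.1 CPM and in clone 3 at 25.0, 26.7, 22.4 and 30.7 CPM. All clone libraries were above all controls, with a change of 2.47 (SE 0.16, edgeR adjusted p = 7.5e-21). None of these 3 genes has another annotated gene within 5000 bases upstream.

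At Cdk2, the kinase partner of cyclin E, the region held 4, 6 and 3 counts in wild type and 5, 0, 4 and 6 counts in Btbd7 KO, against 48 to 128 counts in the 12 clone libraries. The change was 4.71 (SE 0.36, edgeR adjusted p = 7.07e-18), the size of which is imprecise given the few wild-type counts. Cdk2 itself was not called (0.09). Pmel lies upstream of Cdk2 and overlaps it on the other strand, and its own counts rose in the clones (2.704, edgeR adjusted p = 0.00015, from 0 to 0.586 CPM in wild type to 1.79 to 4.56 CPM in the clones), so reads of the 2 features cannot be told apart.

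**Figure D4:**
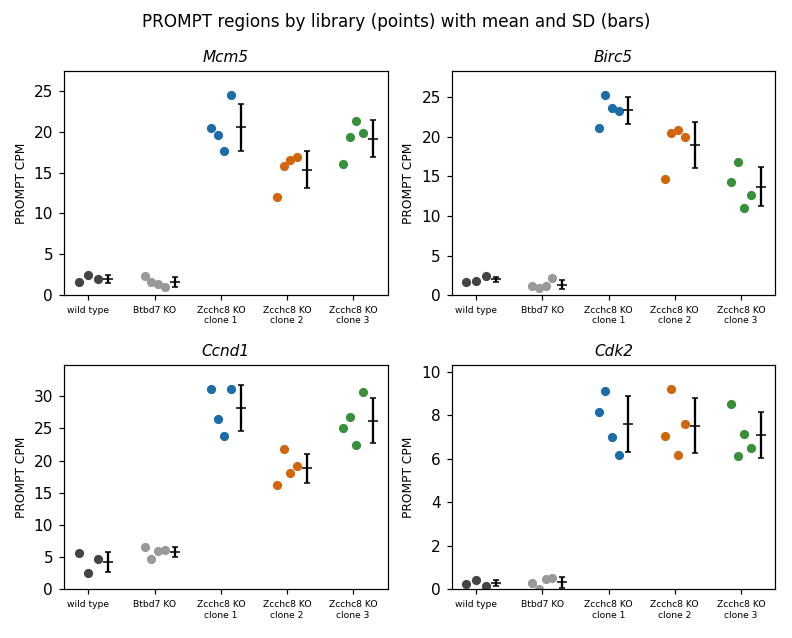
Level of the PROMPT region of 4 genes in each library (points, CPM, vertical axes from 0) by group, with the mean and SD (bar at right, n = 3 in wild type and 4 elsewhere). The clones lie at 10.98 to 25.3 CPM at Birc5 and at 12.1 to 24.5 CPM at Mcm5, and the control libraries there lie at 2.51 CPM or below.

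The region of Mcm3 held 0 counts in all wild-type libraries and 58 counts over the 12 clone libraries, at least 7.32-fold higher against a floor of 3 counts over the wild-type group. The calls of 4 regions were lost without a single wild-type library. Without replicate 2, Tk1 was at 0.46 (adjusted p = 0.106) and Cdc6 at 0.58 (adjusted p = 0.0537). Without replicate 4, Mcm7 was at 0.27 (adjusted p = 0.134) and Ccna2 at 2.33 (adjusted p = 0.0632), and without replicate 3 Ccna2 was at 2.43 (adjusted p = 0.0602). The region of Ccne1 moved from 3.03 to 4.86 without replicate 3. The regions of Rrm1, Cdc25a, Mcm4, Ccne2, Top2a, Aurka, Cdc25c and Kif20a were not called, and those of Bub1, Bub1b, Mad2l1 and Tpx2 had too few counts. Of the 30 genes whose region rose, 6 rose, 13 fell and 11 were not called in the gene table. Over all 42 genes these counts were 6, 19 and 17, so the share that fell was near that of the whole list. Of the 42 genes 21 have no other gene within 5000 bases upstream, and 15 of them had a region that rose, as had 15 of the 21 with such a neighbour.

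**Figure D5:**
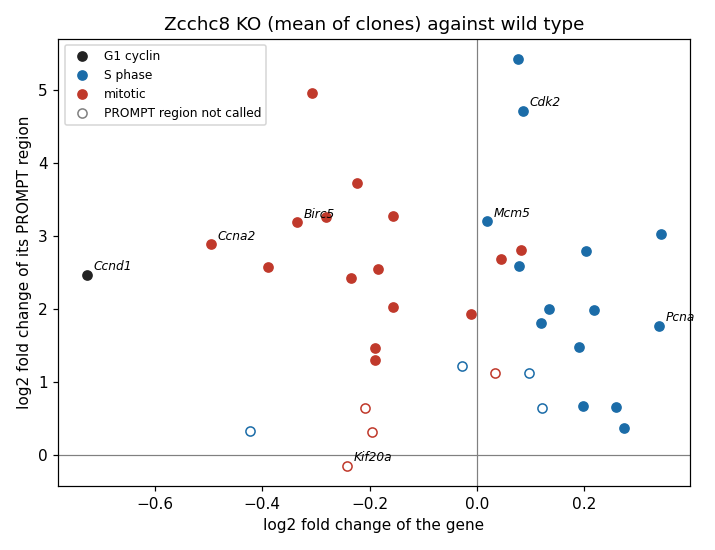
Log2 fold change of each gene (horizontal axis) and of its PROMPT region (vertical axis) for the mean of the clones against wild type, coloured by set, open where the region was not called. Regions rose over both falling mitotic genes and rising S phase genes, and the topmost point, Mcm3, is a fitted value against 0 wild-type counts.

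Per kilobase of exons, the wild-type level was lowest for Cdc25a (5.50 CPM per kb) and Ccne1 (6.02 CPM per kb) and highest for Mki67 (146 ± 10.5 CPM per kb), Mcm5 (142 ± 10.9), Ccna2 (139 ± 15.4), Ccnd1 (108 ± 1.77) and Top2a (106 ± 6.49; SD, n = 4 each). Mki67, Mcm5 and Ccna2 did not differ beyond their spread, nor did Ccnd1 and Top2a. In clone 1 Ccnd1 was at 55.0 CPM per kb, below Top2a (103 CPM per kb).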

How the data were processed

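RNA of 20 SIMS libraries (total RNA, TRIzol and spin columns, Illumina TruSeq Stranded Total RNA kit, per the labels' protocols) was analysed from tables of raw counts per gene and per PROMPT region that the authors deposited. STAR 2.7.3a and FastQC are named in the submitters' processing notes. The counting tool, its strand setting, the genome build and the extent of a PROMPT region are not given in the sources used here. Gene IDs were matched to GENCODE M21 (GRCm38).

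Genes were filtered with filterByExpr by group, scaled with TMM factors from all genes, and tested with edgeR 4.0.16 (R 4.3.3): 1 quasi-likelihood fit over all 20 libraries and 5 groups, Benjamini-Hochberg adjustment over all 15297 genes, called at an adjusted p under 0.05. PROMPT regions were tested the same way in 19 libraries (3 of wild type) with the library sizes and TMM factors of the gene table. On simulated counts for 15297 genes with 200 changed, the comparison of the clones with wild type recovered 74.5% of them (67.2%, 68.7% and 87.9% at 1.5-, 2- and 4-fold), and 8.02% of calls were false. For PROMPT regions, with 200 changed, 53.5% were recovered (22.4%, 55.2% and 83.3%), and 1.83% of calls were false. Fewer genes were changed than were called in the real data. No change under 1.5-fold was simulated, so recovery of the smaller changes of S phase and mitotic genes was not measured. The simulated counts used the same library sizes and TMM factors as the fit, and the same fold in each clone. Errors of scaling and differences between clones therefore do not enter these rates. Counts of replicates differed beyond sampling noise in every pair (chi-square per degree of freedom 2.89 or more), so no library was counted as a copy.

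The genes and lists were chosen with earlier results of these data known. All 42 genes are accounted for, with library values for Ccnd1 and, in each set, the 3 with the lowest adjusted p for the clones against wild type and the 2 with the lowest in the test between clones (4 for PROMPT regions). Of the other lists the text names those with the largest called changes, and Cdkn1a and Foxm1 always. Alternatives were no TMM factors, DESeq2 1.42.0, no filter, a fit of only the groups compared, a log2 fold change over 1, a replicate block, cell lines as replicates, scaling within the PROMPT table, each library left out and, added after seeing the data, TMM factors after filtering. Replicate numbers were not treated as pairs.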

Additional observations from a re-analysis of the deposited data

Results flagged for a closer look

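Among groups of 4 libraries, 1 library stood far from the other 3 in 7 of the 81 groups examined, where chance gives about 1 in 20. Ccne2 was at 60.85 CPM in replicate 1 of clone 2 against 49.7 to 50.1 CPM in the others. Tyms was at 119.4 CPM in the same library against 109 to 111 CPM. Ccnb1 was at 164.6 CPM in replicate 4 of clone 3 against 137 to 140 CPM. Top2a was at 1075 CPM in replicate 4 of Btbd7 KO against 1136 to 1147 CPM, and at 992.2 CPM in replicate 3 of clone 1 against 902 to 904 CPM. The ratio of mitotic to S phase levels was 1.848 in replicate 3 of clone 3 against 1.73 to 1.75, and the PROMPT region of Birc5 was at 14.68 CPM in replicate 1 of clone 2 against 19.9 to 20.9 CPM.

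The change against wild type differed among the 3 clones for 18 of the 42 genes (edgeR quasi-likelihood test of the difference). Among mitotic genes the adjusted p was 3.98e-09 for Cdc25b, 1.26e-08 for Top2a, 8.19e-08 for Aurka, 3.3e-07 for Birc5, 2.48e-06 for Tpx2, 7.95e-06 for Bub1, 3.09e-05 for Bub1b, 0.00121 for Kif11, 0.00383 for Ccnb1, 0.00901 for Kif20a, 0.0187 for Mki67, 0.0237 for Cenpf and 0.0418 for Cdc20. It was 7.09e-06 for Cdc6, 3.14e-05 for Pcna, 0.0178 for E2f1 and 0.0384 for Cdc25a among S phase genes, and 8.05e-07 for Ccnd1.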

How the results depend on the processing

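Without TMM factors 12 S phase genes were called higher, 1 mitotic gene higher and 7 lower; clone 1 had 9 of the 42 lower, clone 2 had 11 higher and 8 lower, clone 3 had 11 higher and 10 lower, 6 were lower than in Btbd7 KO, and 24 of the 149 other genes were higher. With a log2 fold change over 1 required, 0 genes were called in any gene comparison with wild type or Btbd7 KO. With cell lines as replicates, the clones were set against wild type and Btbd7 KO together, and 0 S phase or mitotic genes were called. Of the other genes 1 was called higher and 2 lower in that fit, where the test has few degrees of freedom. With DESeq2 1 mitotic gene was higher, 7 genes were higher in clone 2 and 5 in clone 3, 6 were lower in Btbd7 KO, and 1 PROMPT region was higher and 2 lower in Btbd7 KO. In fits of only the groups compared, clone 1 had 5 higher and 6 lower, clone 2 had 7 lower, clone 3 had 11 lower, and Btbd7 KO had 1 gene and 0 PROMPT regions lower. Without a filter clone 2 had 8 lower, clone 3 had 5 higher, and 0 PROMPT regions were lower in Btbd7 KO. With scaling factors from the PROMPT regions themselves, 1 region was lower in the clones, and that of Mcm7 reversed to -0.0272. Beyond these constructions the cause was not tested.

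With each library left out in turn, S phase genes called were 6 to 9 higher and 1 lower, and mitotic genes 0 higher and 16 to 17 lower. Calls were 8 to 10 higher and 11 to 14 lower in clone 1, 3 to 7 and 9 to 16 in clone 2, 2 to 10 and 16 to 20 in clone 3, 4 to 7 and 1 to 8 in Btbd7 KO, 6 to 9 and 9 to 14 against Btbd7 KO, and 15 to 20 differed among clones. The other genes gave 10 to 16 and 40 to 50, PROMPT regions 28 to 30 and 0, and those in Btbd7 KO 0 to 1 and 0 to 2.

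Same-numbered libraries did not deviate together (mean correlation 0.00593 over 40 pairs, 1 of 20 libraries closest to its own number), so no pairing by number was seen in these values. With a replicate block 7 S phase genes were higher and 1 lower, 17 mitotic genes were lower, and no count moved over 1.5 times. Depth limits PROMPT values with few wild-type counts (3 to 6 per library at Cdk2, 0 at Mcm3).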
